A study of Mus musculus with 32 samples.

Results

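Oxidative phosphorylation takes place in the inner mitochondrial membrane, where complexes I to IV pass electrons from NADH and succinate to oxygen and pump protons, and complex V (ATP synthase) uses the proton gradient to make ATP. All but a few of its subunits, and all factors that assemble the complexes, are encoded in the nucleus, made on cytosolic ribosomes, and imported, while the remaining subunits are encoded by mitochondrial DNA. Neurons depend on this pathway for the ATP that keeps up ion gradients and synaptic transmission.

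The members described here are the protein-coding genes whose symbol starts with Nduf, Sdha to Sdhd, Uqcr, Cox4i, Cox5, Cox6, Cox7, Cox8, or Atp5, and which had at least 10 counts in every library. Of 97 protein-coding genes with such a name, 91 reached this minimum, out of 49671 genes in the deposited table. They comprise 7 core subunits, 29 accessory subunits, and 8 assembly factors of complex I (NADH dehydrogenase), 4 subunits and 4 assembly factors of complex II (succinate dehydrogenase), 8 subunits of complex III (cytochrome c reductase), 14 of complex IV (cytochrome c oxidase, with Ndufa4 counted there), and 16 of complex V. The remaining member is Atp5s, which encodes factor B, a protein associated with ATP synthase. No treatment response entered this choice.

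RNA was sequenced from primary cortical neuron cultures of wild-type C57BL/6 mice, prepared from embryonic tissue. The cultures were left untreated or were exposed to miR-92a-1-5p, to miR-124-5p, or to Mut.oligo, a mutated miRNA sequence that served as the control, for 6 h or 5 d. All 3 were synthetic oligoribonucleotides with a phosphorothioate backbone, given at the same concentration. Each of the 8 groups held 4 libraries that the labels call biological replicates. The labels also name an experiment batch for each library, and no batch held libraries of both time points. The sequence of mature miR-92a-1-5p, with the seed (bases 2 to 8) in capitals, is shown because it is the sequence to which the neurons were exposed. It comes from RefSeq (GRCm38.p6, chr14:115044437-115044459, forward strand).
mmu-miR-92a-1-5p: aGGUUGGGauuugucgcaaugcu

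The 32 libraries held 24514090 to 73626029 counts, so that a count of 3 corresponds to 0.122 CPM (counts relative to the library total, scaled with TMM factors) in the smallest and 0.0407 CPM in the largest library, a floor that covers counting error only. Neuronal markers were abundant at both times, with a summed level of 9 genes between 6284 and 7261 CPM at 6 h and between 5653 and 8305 CPM at 5 d, and all 9 were detected in every library. Other cells were present as well. The 6 astrocyte markers summed to between 351 and 750 CPM at 6 h and between 1611 and 2826 CPM at 5 d, and all 6 were higher at 5 d in untreated cultures. The 5 markers of dividing cells went from between 119 and 331 CPM to between 27.0 and 78.8 CPM, and all 5 were lower. The 8 microglial markers summed to 10.7 to 33.8 CPM over both times, and P2ry12 was at 0 counts in 2 libraries. In such bulk RNA, fewer cells of a type and less RNA per cell cannot be told apart. At 5 d, 1 library of miR-124-5p (replicate 1) and 1 of Mut.oligo (replicate 3) stood apart from the others, as described below.

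The counts of the 2 time points differed in a way that followed gene structure. The study's methods state that reads were counted by strand. Among protein-coding genes with no exon base under an exon of the opposite strand, 26.7% were higher and 30.3% lower in untreated cultures at 5 d than at 6 h, whereas 68.3% were higher and 13.8% lower among the 145 genes with over 50% of their exon bases under such exons. The median log2 difference was -0.01 in the first class and 1.32 in the second, with 0.03, 0.09, and 0.38 in the 3 classes between them. Some genes, singled out after their values were seen, differed far more. The complex IV assembly gene Sco2 had 0 counts in all 16 libraries at 6 h and 117 to 295 at 5 d, Cox20 had 4 to 28 and 503 to 858, and mt-Nd6, the one complex I subunit on the light strand of mitochondrial DNA, had 19702 to 70196 and 456 to 1511. Time point, experiment batch, and a difference in how the counts were made cannot be told apart in these data. Of the members, 60 had no opposite-strand exon overlap and 31 had some, and the counts of members called across time are therefore also given for those without it. Comparisons within a time point set libraries of one kind against each other, and the median log2 difference of miR-92a-1-5p from untreated was close to 0 in each of these classes.

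Control regions of the members were compared first, since their genes are known targets of a few transcription factors that act on mitochondrial biogenesis: NRF1, YY1, and the ETS factor GABP (also called NRF2). RefSeq promoters, from 250 bases before to 50 bases after the start of transcription, were found for 75 of the 91 members. The NRF1 motif, a GCGCA followed after 1 base of any kind by GCGC, was sought on both strands, as were the YY1 and GABP motifs. The NRF1 motif was present in 21 of 75 members, or 28%, and in 7.35% of 16447 promoters of other protein-coding genes. The shares were 13.3% and 3.59% for YY1, and 6.67% and 5.93% for GABP, so that 45.3% of members and 15.4% of other genes held any of them. The other genes were not filtered by counts, whereas the members had at least 10 in every library. The part of this filter in the contrast was not tested. Windows around the first NRF1 match are shown for members of different complexes, with the match in capitals (GRCm38.p6, all on the reverse strand, written 5′ to 3′). They show the same core in genes that were lower at 5 d (Atp5g2, Ndufs6, Ndufa8, Cox6a1, Atp5c1, Atp5k) and in genes that did not pass the test (Sdhd, Sdha), as described below.
Atp5g2 (chr15:102671070-102671099): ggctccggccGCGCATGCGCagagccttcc
Ndufs6 (chr13:73328483-73328508): cgactgctgtGCGCCTGCGCcggcac
Ndufa8 (chr2:36049349-36049378): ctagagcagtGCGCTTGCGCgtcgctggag
Cox6a1 (chr5:115349101-115349130): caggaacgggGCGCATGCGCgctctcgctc
Atp5c1 (chr2:10080433-10080459): ctgagctcccGCGCACGCGCactgagt
Atp5k (chr5:108434430-108434459): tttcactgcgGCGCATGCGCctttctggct
Sdhd (chr9:50603909-50603938): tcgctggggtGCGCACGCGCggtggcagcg
Sdha (chr13:74350319-74350348): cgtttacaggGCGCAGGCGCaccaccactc

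The NRF1 motif was found both among members that changed with time and among members that did not pass the test. It was present in 14 of the 49 members with a promoter that were lower in untreated cultures at 5 d, in 1 of the 9 that were higher, and in 6 of the 17 that did not pass the test. A match of letters describes a sequence and does not show that a factor bound there.

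Levels of the members were compared per length of their merged exons, in CPM per kilobase. In untreated cultures, complex IV and complex V held the highest of them. At 6 h, Cox6a1 (a complex IV subunit) had 303 ± 2.12 CPM per kilobase, Cox6b1 had 274 ± 5.32, and Atp5a1, the alpha subunit of the catalytic head of ATP synthase, had 264 ± 4.16 (SD, n = 4 each). At 5 d, the same genes had 240 ± 7.18, 221 ± 5.85, and 234 ± 10.7 CPM per kilobase, so that Atp5a1 and Cox6a1 no longer differed by more than their spread. Within complex I, the core subunit Ndufs1, its largest subunit, had 12.2 ± 0.210 CPM per kilobase at 6 h, while the accessory subunit Ndufc2 reached 126 ± 4.83. The merged exons of Ndufs1 span 8086 bases against 651 in its median transcript, and before division by length these genes were at 98.7 ± 1.7 and 94.9 ± 3.64 CPM. Complex II subunits ranged from 30.5 ± 0.714 CPM per kilobase for Sdhc to 79.7 ± 1.71 for Sdhd, and complex III subunits from 41.6 ± 2.15 for Uqcrc1 to 116 ± 2.88 for Uqcr11. The merged exons of Sdhc span 3250 bases against 815 in its median transcript, and those of Uqcrc1 4135 against 533. For Sdhd, both are 1231 bases, and for Uqcr11 they are 641 and 445, so that these orders depend on the length used. Assembly factors were at 19.6 ± 0.580 CPM per kilobase for Ndufaf5 and 5.44 ± 0.153 for Ndufaf6 in complex I, and 9.70 ± 0.446 for Sdhaf4 and 1.29 ± 0.0847 for Sdhaf3 in complex II. Atp5l (subunit g of ATP synthase) was at 0.144 ± 0.0277 CPM per kilobase, below every other subunit of complex V, and the accessory subunit Ndufb4 was at 3.25 ± 0.379. Both are uncertain, since reads that map to several places, as in near-identical gene copies, were not assigned, and the merged exons of Atp5l span 6443 bases against 544 in its median transcript.

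Several complex IV subunits have paralogues that are used in particular tissues, and in these cultures the widely used form prevailed. Cox4i1 was at 237 ± 5.81 CPM in untreated cultures at 6 h, and its lung paralogue Cox4i2 had 0 to 6 counts in any library. Cox6a1 was at 213 ± 1.49 CPM and its heart and muscle paralogue Cox6a2 at 1.6 ± 0.497. Cox6b1 was at 194 ± 3.77 CPM and its testis paralogue Cox6b2 at 1.41 ± 0.584 (SD, n = 4 each). Cox7a2 was at 134 ± 5.89 CPM and Cox7a2l, which takes part in supercomplexes, at 69.0 ± 2.24, while the muscle form Cox7a1 had 7 to 57 counts in any library. Cox8a was at 144 ± 5.47 CPM, whereas the muscle form Cox8b had 0 to 18 counts and the testis form Cox8c 0 or 1. Ndufa4 was at 181 ± 7.10 CPM, and Ndufa4l2, known from hypoxia, had 1 to 14 counts. Cox7b2, with 0 to 12 counts, was the sixth gene below the minimum count.

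**Figure D1:**
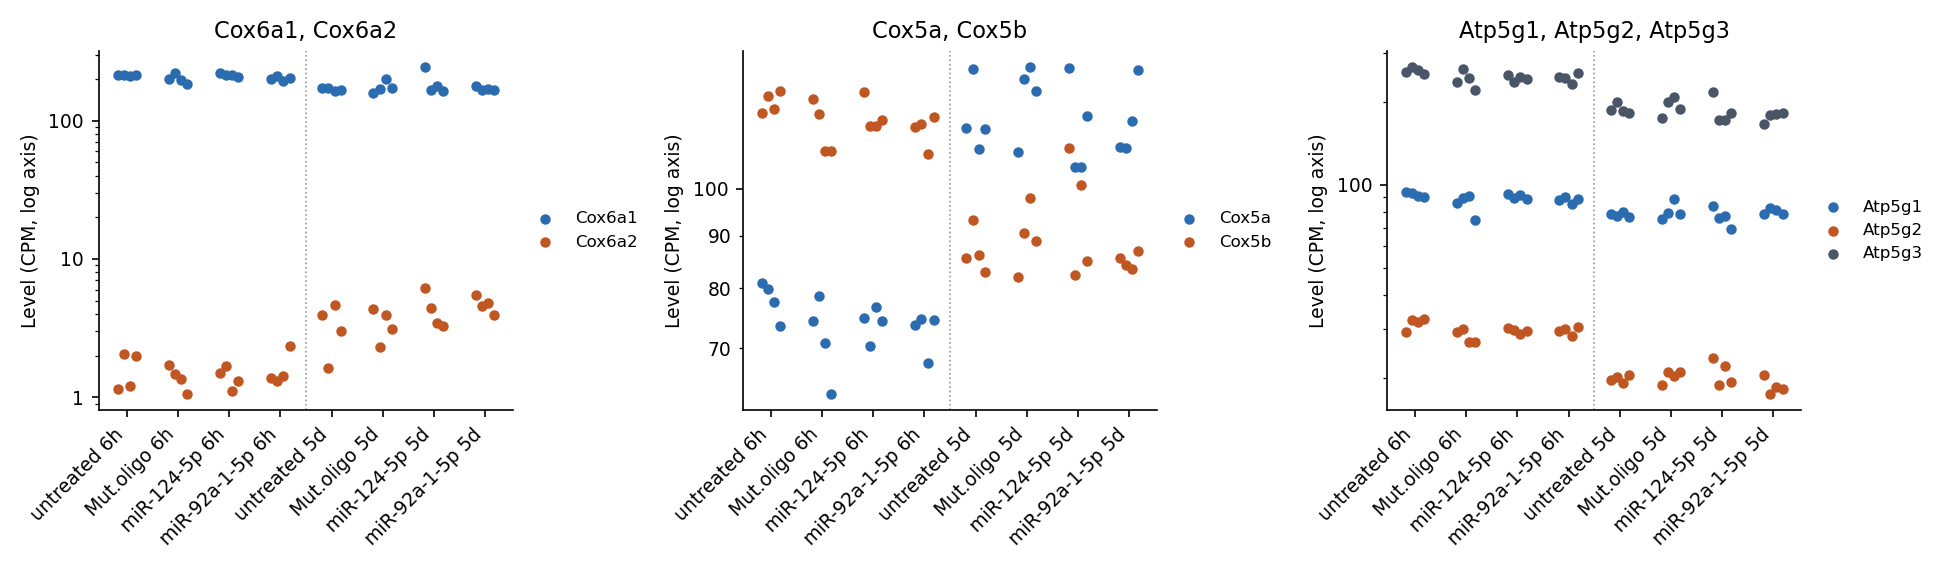
Levels (CPM, log axis) of Cox6a1 and Cox6a2, of Cox5a and Cox5b, and of the 3 genes for subunit c of complex V in all 8 groups, with 1 point per library. In untreated libraries, Cox6a1 lies near 213 CPM at 6 h and Cox6a2 near 1.6 CPM, Cox5a lies below Cox5b at 6 h and above it at 5 d, and Atp5g3, Atp5g1, and Atp5g2 keep their order.

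Subunit c of ATP synthase, which forms its rotating ring, is encoded by 3 genes for the same mature protein. Atp5g3 had the highest level in untreated cultures, at 259 ± 6.62 CPM at 6 h and 188 ± 7.30 at 5 d. Atp5g1 was at 92.4 ± 1.76 and 77.9 ± 1.56 CPM, and Atp5g2 at 31.5 ± 1.48 and 19.8 ± 0.580 (SD, n = 4 each). These 3 genes kept this order in every untreated library.

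The first question was whether exposure to the miRNAs changed these genes after 6 h. The summed level of the 91 members was 9507 ± 147 CPM in untreated cultures, 9030 ± 218 with miR-92a-1-5p, 9132 ± 195 with miR-124-5p, and 8963 ± 450 with Mut.oligo (SD, n = 4 each). The untreated libraries lay between 9311 and 9651 CPM, the miR-92a-1-5p libraries between 8727 and 9245, the miR-124-5p libraries between 8967 and 9407, and the Mut.oligo libraries between 8386 and 9482. The summed levels after miR-92a-1-5p did not overlap those of untreated cultures, and the others did. This rested on the TMM scaling. As a percent of all counts in a library, the members made up 0.915 to 0.986 in untreated cultures and 0.891 to 0.938 after miR-92a-1-5p, which overlapped. No member passed the test against untreated, 0 of 91 for each oligoribonucleotide, and the background share of all 18755 genes tested was 0% in each of the 3 comparisons (quasi-likelihood test of edgeR, Benjamini-Hochberg adjusted p under 0.05). DESeq2 called 0 members as well.

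**Figure D2:**
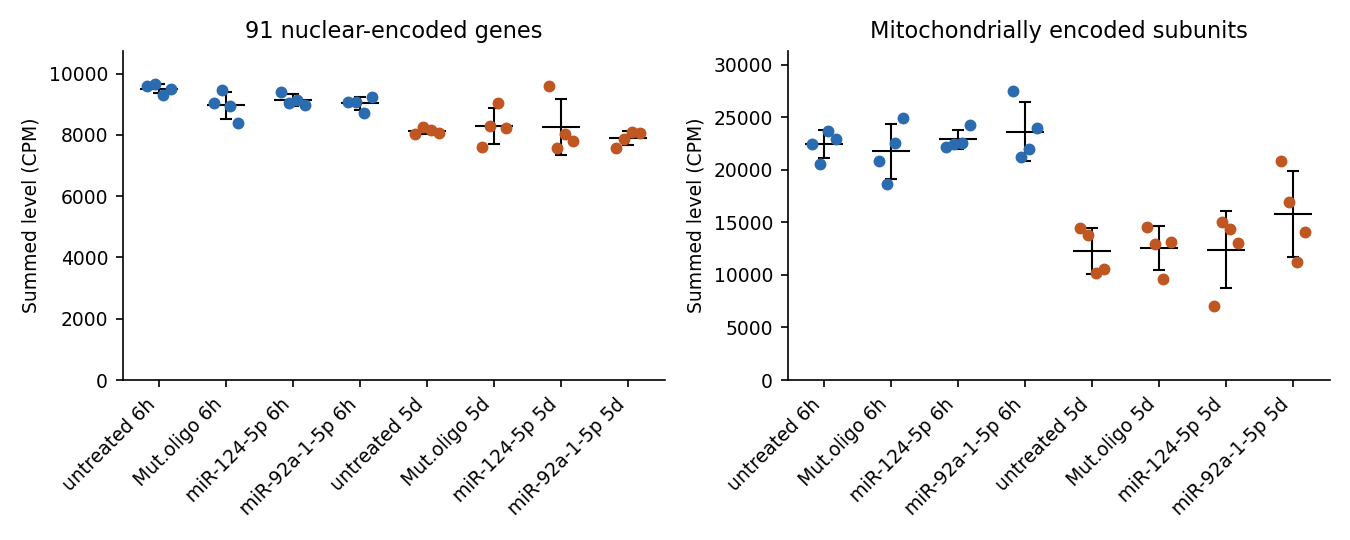
Summed level (CPM) of the 91 nuclear-encoded genes (left) and of the mitochondrially encoded subunits (right), with 1 point per library and the mean and SD of each group of 4. The right panel holds the 8 of 13 such subunits that were tested. It includes mt-Nd6, whose counts differed between the times as described above, so its levels at 6 h and 5 d are not directly comparable. The nuclear-encoded sum lies between 8386 and 9651 CPM at 6 h and between 7578 and 9611 CPM at 5 d, where miR-124-5p replicate 1 and Mut.oligo replicate 3 lie above the other libraries of that time.

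Below this threshold, the values at 6 h leaned to one side after all 3 exposures. After miR-92a-1-5p, 83 of 91 members had a log2 fold change below 0, with a median of -0.07 against 0.01 over all genes tested. After miR-124-5p, 76 were below 0 with a median of -0.05, and after Mut.oligo 82 with a median of -0.06, against -0.00 over all genes in both. At an unadjusted p under 0.05, there were 19, 10, and 10 members, or 20.9%, 11%, and 11%, against 4.75%, 4.54%, and 9.49% of all genes tested. These 3 comparisons share the untreated libraries, so that a deviation in those enters all of them. Against Mut.oligo in place of untreated, miR-92a-1-5p had a median of -0.01 and miR-124-5p one of 0.01, and 58 and 39 members were below 0. Of the members, 0 passed the test in either comparison, against a background of 0% in both, and 0 and 3 had an unadjusted p under 0.05.

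The lean after miR-92a-1-5p ran through the complexes and was not limited to them. Other lists had medians of -0.07 (enzymes of the citrate cycle), -0.06 (cytosolic ribosomal proteins), -0.05 (glycolysis), and -0.04 (mitochondrial ribosomal proteins), while the 8 mitochondrially encoded subunits tested had 0.08. Of the complex I subunits, 7 of 7 core and 27 of 29 accessory ones were below 0 at 6 h, with medians of -0.06 and -0.07. In complexes II, III, IV, and V, these were 4 of 4, 8 of 8, 13 of 14, and 15 of 16 subunits, with medians of -0.09, -0.09, -0.07, and -0.08. The highest value of a member was 0.30 (SE 0.22) for Atp5l, whose level is low and uncertain. Of the assembly factors, 6 of 8 for complex I and 3 of 4 for complex II were below 0. The 4 miR-92a-1-5p libraries lay below all 4 untreated libraries for 16 of 91 members, where 1.73% of all genes did so. The same held for 14 members after miR-124-5p, with a background of 1.78%, and for 5 after Mut.oligo, with a background of 2.59%.

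Each of the 4 batches with an untreated library at 6 h also held 1 library of miR-92a-1-5p. Within them, 63, 78, 85, and 74 members were lower than in the untreated library of the batch, and 48 were lower in all 4. The median over all genes within these batches lay between -0.02 and 0.01. The share of all genes that were lower in all 4 is not given, so the count of 48 has no background. When the batch entered the fit as a covariate, the median stayed at -0.07 and 37 members had an unadjusted p under 0.05, or 40.7% against 13.4% of all genes. None of the 91 passed at an adjusted p under 0.05 in that fit, whose background share was 1.06%. The lowest adjusted p of a member was 0.0612 for Atp5d, the delta subunit of ATP synthase, followed by 0.0685 for Sdhb, the iron-sulfur subunit of complex II, and 0.129 for Atp5b, the catalytic beta subunit (quasi-likelihood test of edgeR, Benjamini-Hochberg). Atp5d was at 142, 160, 147, and 150 CPM in the untreated libraries and at 132, 136, 131, and 143 CPM after miR-92a-1-5p, so that only replicate 1 of the untreated group fell into the range of the exposed one. Sdhb was at 143, 144, 133, and 138 CPM in the untreated libraries and at 125, 134, 123, and 134 CPM after miR-92a-1-5p, where the groups overlapped by little. For the other exposures, 2 batches each held an untreated library, and within them 49 and 70 members were lower with miR-124-5p and 72 and 78 with Mut.oligo. Within the batches of miR-92a-1-5p, Sdhb was lower by between -0.16 and -0.09 on the log2 scale, and Atp5d by between -0.20 and -0.07.

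After miR-92a-1-5p at 6 h, the 3 members with the smallest p, Atp5k, Atp5mpl, and Atp5e, were small subunits of ATP synthase. Atp5k, subunit e of the membrane part, was at 67.5, 64.5, 65.4, and 61.7 CPM in untreated libraries, at 61.3, 57.7, 57.5, and 59.9 CPM after miR-92a-1-5p, and at 58.7, 53.9, 58.4, and 56.1 CPM with miR-124-5p. Every library of both miRNAs lay below every untreated one, but Atp5k was picked by its small p in these comparisons, which share the untreated libraries. The log2 fold change of Atp5k was -0.13 (SE 0.04, adjusted p = 0.999) with miR-92a-1-5p and -0.18 (SE 0.04, adjusted p = 1.00) with the other miRNA (quasi-likelihood test of edgeR, Benjamini-Hochberg). Against Mut.oligo, the log2 fold change of Atp5k after miR-124-5p was smaller in size, at -0.10. Atp5mpl, which encodes a small proteolipid of the same part, was at 74.9, 73.6, 75.2, and 71.1 CPM after miR-92a-1-5p and at 92.9, 83.5, 78.5, and 76.4 CPM in untreated libraries, which did not overlap, with a log2 fold change of -0.17 (SE 0.05). Atp5e, the epsilon subunit, had a log2 fold change of -0.14 (SE 0.05), and its groups overlapped. After miR-124-5p, Ndufaf6, an assembly factor of complex I, had the largest difference, -0.26, with 5.03, 6.54, 4.99, and 5.72 CPM against 6.73, 6.64, 6.97, and 6.53 in untreated libraries, so that replicate 2 alone reached the untreated range, and Cox6c of complex IV had -0.15. After Mut.oligo, the accessory subunit Ndufa12 was at 40.4, 41.5, 39.9, and 37.4 CPM against 45.2, 45.8, 41.9, and 43.5, a log2 fold change of -0.12 without overlap (adjusted p = 0.433 from the quasi-likelihood test of edgeR, Benjamini-Hochberg), while Atp5g2 and Atp5d had -0.13 and -0.14.

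After 5 d, no member passed the test for any oligoribonucleotide either. The background share of the 19333 genes tested was 0.00517% with miR-92a-1-5p and 0% with the other oligoribonucleotides. The number of members at an unadjusted p under 0.05 was 0, 0, and 0. DESeq2 called 0 members, and its share of all genes is not given here. The summed level was 8127 ± 100 CPM in untreated cultures, 7901 ± 235 with miR-92a-1-5p, 8258 ± 922 with miR-124-5p, and 8287 ± 585 with Mut.oligo (SD, n = 4 each). The untreated libraries ranged from 8041 to 8257 CPM and the miR-92a-1-5p libraries from 7587 to 8102, with overlap. The wide spread of the other 2 groups came with 1 library each, miR-124-5p replicate 1 at 9611 CPM and Mut.oligo replicate 3 at 9041 CPM. In the same libraries, cytosolic ribosomal protein genes summed to 19665 and 16250 CPM, above the 5 d libraries of untreated cultures, and mitochondrially encoded subunits to 7028 and 9588 CPM, the lowest values of their groups.

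The medians at 5 d were below 0 after miR-92a-1-5p and above 0 after the other oligoribonucleotides, where 1 library set the sign in each. Whether the effects differed from those at 6 h was tested gene by gene, as given below, and no member passed. The median log2 fold change was -0.03 for miR-92a-1-5p with 68 members below 0, 0.05 for miR-124-5p with 29 below 0, and 0.03 for Mut.oligo with 23 below 0, while the median over all genes was 0.00 or -0.00. Without miR-124-5p replicate 1, the median for miR-124-5p turned to -0.05, and without Mut.oligo replicate 3, that for Mut.oligo turned to -0.02. Within the 2 batches that miR-124-5p shared with untreated, 83 and 67 members were lower, and within the 3 that Mut.oligo shared, 82, 41, and 29. For miR-92a-1-5p, these were 67 and 42 of 91 in 2 batches, and with the batch as a covariate the median was -0.08 with 83 members below 0, of which 0 passed, where the background share was 0.512%. Libraries of the exposed group lay below all untreated ones for 5, 1, and 0 members, against backgrounds of 1.57%, 0.999%, and 1.26%.

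Among single members at 5 d, the largest difference after miR-92a-1-5p was that of Cox6a2, the heart and muscle form, with 5.51, 4.56, 4.79, and 3.95 CPM against 3.95, 1.63, 4.64, and 3.02 in untreated libraries. The log2 fold change of Cox6a2 was 0.50 with a 95% interval from -0.06 to 1.07, and the groups overlapped. After miR-124-5p, Ndufb7, an accessory subunit at the intermembrane space side of complex I, was at 62.9, 36.3, 36.7, and 34.6 CPM against 37.3, 36.3, 35.3, and 37.5, and Uqcrq of complex III at 128, 76.2, 83.6, and 77.7 CPM against 78.4, 78.1, 73.1, and 80.6. In both genes, replicate 1 stood above all others and set the log2 fold changes of 0.23 and 0.24. Ndufaf7, a methyltransferase needed to assemble complex I, was at 41.3, 34.8, 37.2, and 34.1 CPM after miR-124-5p against 33.5, 33.3, 33.7, and 34.3, with a log2 fold change of 0.14 and overlapping groups. Its log2 fold change after Mut.oligo was 0.12, as were those of Cox7c and Atp5s. After miR-92a-1-5p, the acyl carrier protein Ndufab1 had -0.11 and Ndufs1 -0.08. Against Mut.oligo, 0 members passed with miR-92a-1-5p and 0 with miR-124-5p, at backgrounds of 0% and 0% and with 0 and 0 members at an unadjusted p under 0.05. Sdhc, a membrane anchor of complex II, had log2 fold changes of -0.12 and -0.11 in these 2 comparisons, and Cox7c of complex IV -0.13 and -0.15.

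**Figure D3:**
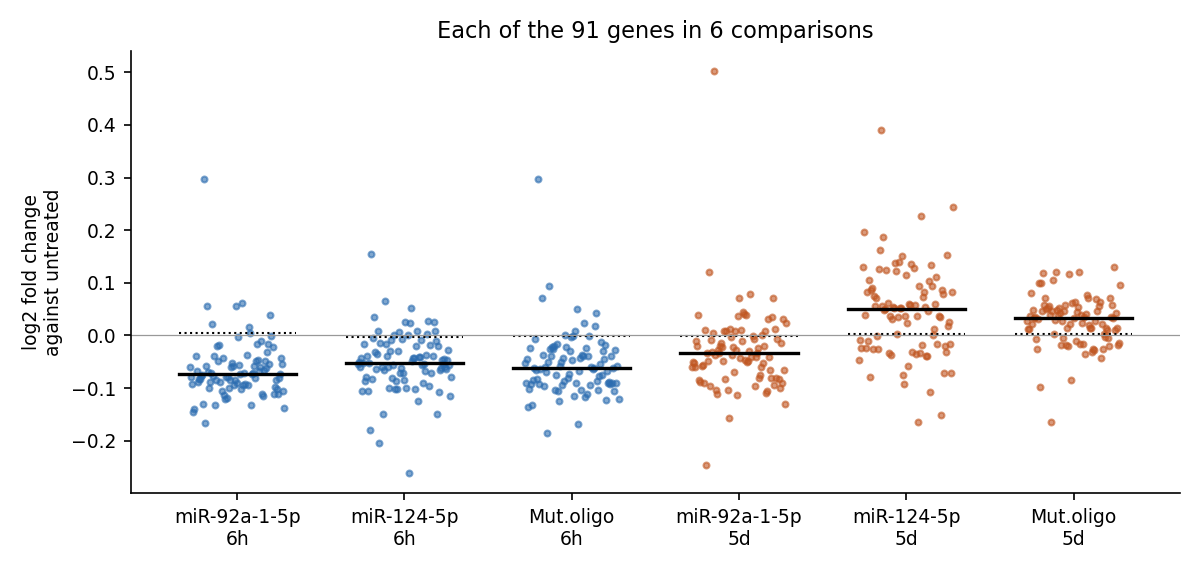
Log2 fold change of each of the 91 members against untreated for the 3 oligoribonucleotides at 6 h and 5 d, with 1 point per member, a solid line at their median and a dotted line at the median of all genes tested. From left to right, the medians of the members are -0.07, -0.05, and -0.06 at 6 h and -0.03, 0.05, and 0.03 at 5 d.

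The intervals of these differences bound what could have been missed. At 6 h, the median SE of a member's log2 fold change was 0.05, and the 95% interval lay within -0.5 and 0.5 for 88 of 91 members in each comparison to untreated and within -0.25 and 0.25 for 79, 79, and 80. At 5 d, the median SE was 0.09, and 87, 86, and 89 intervals lay within the wider limits and 49, 46, and 55 within the narrower ones. Smaller differences could not be told from 0 gene by gene. The effect of each oligoribonucleotide at 5 d minus its effect at 6 h passed for 0 of 91 members in each of 3 tests of that difference, against a background of 0% in each, with 0, 3, and 6 members at an unadjusted p under 0.05 in the order of the exposures above (quasi-likelihood test of edgeR, Benjamini-Hochberg). The medians of this difference were 0.03, 0.09, and 0.10, and it was above 0 for 62, 80, and 88 members.

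The second question was how the members differed between the time points. In untreated cultures, 57 of 91 members were lower and 13 higher at 5 d than at 6 h, and 21 did not pass, whereas 26.9% of all 20425 genes tested were lower and 27.8% higher (quasi-likelihood test of edgeR, Benjamini-Hochberg adjusted p under 0.05). The median log2 difference was -0.24 for the members and 0.04 for all genes. Of the 60 members without opposite-strand exon overlap, 44 were lower and 4 higher with a median of -0.28, against 30.3% lower, 26.7% higher, and a median of -0.01 among the 11234 protein-coding genes without such overlap. Of the 31 members with overlap, 13 were lower and 9 higher, against 25.4% and 37.5% of the 4763 protein-coding genes with overlap. The 4 libraries at 5 d lay below all 4 at 6 h for 59 members and above them for 10, against 24.3% and 23.6% of all genes. Astrocyte markers rose and markers of dividing cells fell over the same interval, and their part in the result was not tested.

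**Figure D4:**
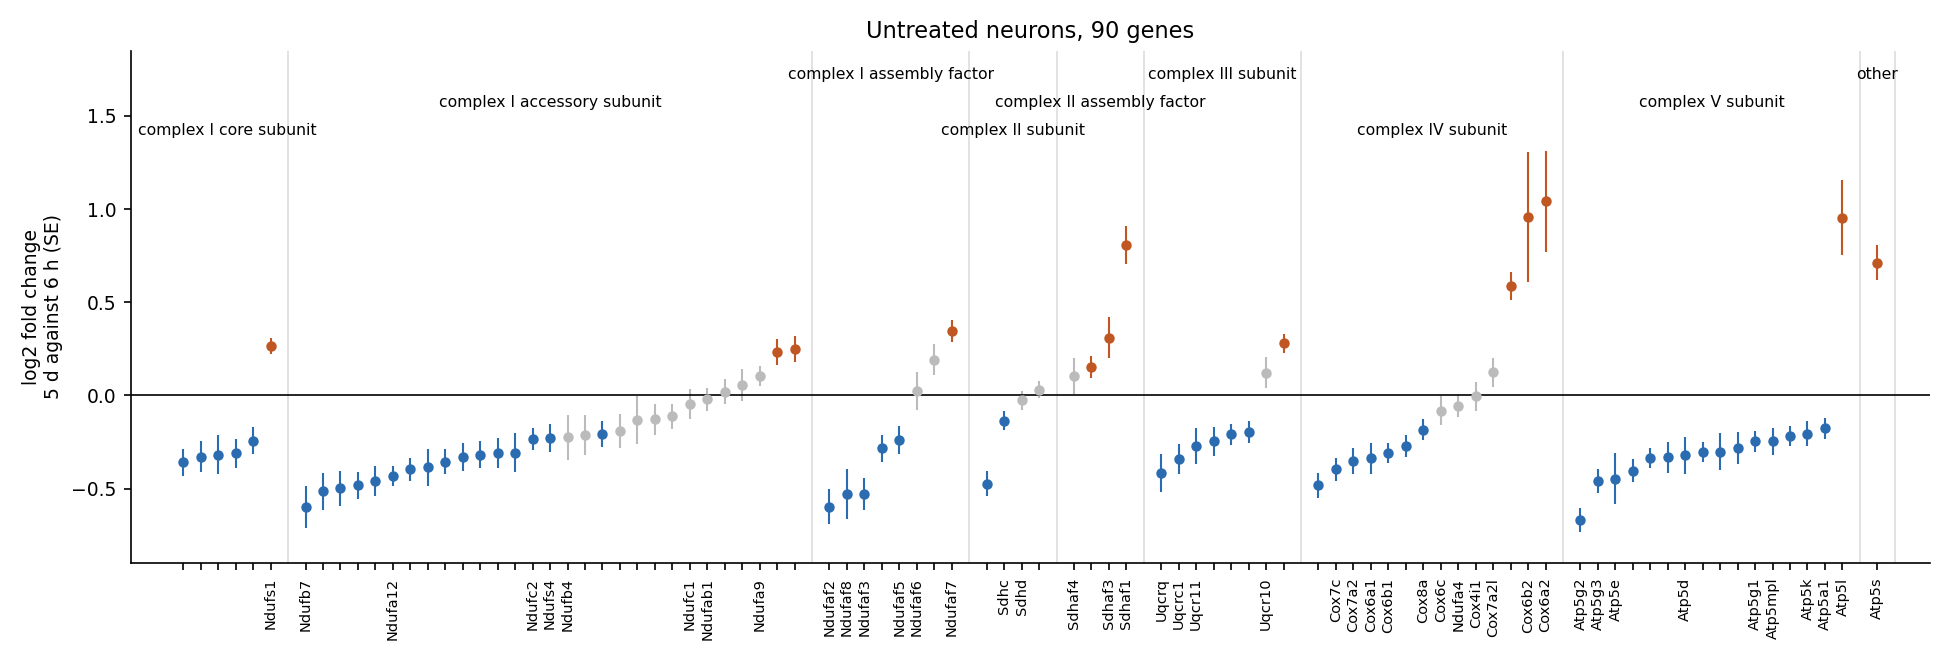
Log2 difference between 5 d and 6 h in untreated cultures for 90 members (points) with their SE (bars), ordered within complexes and assembly factors and colored blue where lower, orange where higher, and grey where the test was not passed, with the genes of the naming rule labelled below. Of these, 56 are blue and 13 orange, and 15 of the 16 subunits of complex V are blue.

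Without the members with opposite-strand overlap, 4 of 4 core and 13 of 18 accessory subunits of complex I were lower, as were 2 of 4 subunits of complex II, 5 of 6 of complex III, 7 of 10 of complex IV, and 10 of 10 of complex V, and the single higher subunit among them was in complex IV. Of the assembly factors without overlap, 3 of 6 for complex I were lower and 1 higher, and the one for complex II was higher.

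In complex I, 6 of the 7 core subunits were lower, with a median of -0.31. Ndufs7, which carries the last iron-sulfur cluster before ubiquinone, was at 41.3, 46.4, 40.6, and 44.1 CPM at 6 h and at 34.9, 33.4, 35.4, and 34.7 CPM at 5 d, without overlap between the times, a log2 difference of -0.32 (SE 0.10). It was called lower in untreated cultures only, while Ndufs3, Ndufv1, and Ndufv2 were called lower after every exposure as well. Ndufs1 was the exception, at 99.5, 100, 96.5, and 98.4 CPM at 6 h and 115, 124.1, 121, and 114 CPM at 5 d, a log2 difference of 0.26, and 6.16% of its exon bases lie under exons of the opposite strand. Of the 29 accessory subunits, 16 were lower and 2 higher. Ndufb7 had the largest fall among them, from 53.2, 60.0, 52.7, and 55.8 CPM to 37.3, 36.3, 35.3, and 37.5 CPM, a log2 difference of -0.60 (SE 0.11, adjusted p = 3.68e-05 from the quasi-likelihood test of edgeR, Benjamini-Hochberg). All of its libraries at 5 d lay below those at 6 h, and the gene has no opposite-strand overlap. The 2 that were higher, Ndufb6 and Ndufb5, have 39.0% and 12.3% of their exon bases under exons of the opposite strand.

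Most assembly factors of complex I were lower and none of complex II was, but only 1 of the 4 for complex II has no opposite-strand overlap. Of the 8 for complex I, 5 were lower and 1 higher. Ndufaf8 went from 7.17, 7.08, 7.06, and 6.63 CPM to 5.08, 5.04, 4.79, and 4.44 CPM, a log2 difference of -0.53 (SE 0.13, adjusted p = 0.00133), and Ndufaf3 had one of -0.53 (SE 0.09) as well (quasi-likelihood test of edgeR, Benjamini-Hochberg). Ndufaf2 had -0.60 (SE 0.09), and 65.6% of its exon bases lie under exons of the opposite strand. Ndufaf7 rose from 27.0, 26.4, 26.8, and 25.7 CPM to 33.5, 33.3, 33.7, and 34.3 CPM, a log2 difference of 0.35 (SE 0.06), with no overlap between the times and none on the opposite strand. Of the 4 assembly factors of complex II, 3 were higher. Sdhaf1, which helps to load iron-sulfur clusters into Sdhb, went from 5.17, 5.37, 4.30, and 5.90 CPM to 8.90, 9.07, 9.17, and 9.19 CPM, a log2 difference of 0.81 (SE 0.10), but 69.6% of its exon bases lie under an exon of E130208F15Rik on the other strand. Sdhaf3, without such overlap, had 0.31 (SE 0.11) and Sdhaf2 0.15.

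Complex II itself changed unequally. Sdhb fell from 143, 144, 133, and 138 CPM to 99.5, 95.8, 106, and 100 CPM, a log2 difference of -0.47 (SE 0.07, adjusted p = 1.11e-06 from the quasi-likelihood test of edgeR, Benjamini-Hochberg), with every library at 5 d below every library at 6 h. Sdhc fell by 0.13 on the log2 scale. The flavoprotein Sdha and the anchor Sdhd had log2 differences of 0.03 and -0.03 and did not pass. None of these 4 genes has opposite-strand overlap. Sdha and Sdhd hold the NRF1 motif shown above, and no match was found in the promoter window of Sdhb.

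In complex III, 6 of 8 subunits were lower in untreated cultures, and the core subunits went apart. Uqcrc1 went from 166, 185, 166, and 171 CPM to 135, 138, 137, and 133 CPM, a log2 difference of -0.34 (SE 0.08), without overlap between the times. Uqcrc2 went from 160, 157, 153, and 158 CPM to 189, 185, 193, and 196 CPM, a log2 difference of 0.28 (SE 0.05), also without overlap, with 19.7% of its exon bases under Pdzd9 on the other strand. Uqcr10, a small subunit, had 0.12 and did not pass.

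In complex IV, 7 of 14 subunits were lower and 3 higher. Cox5a and Cox5b, both on the matrix side of the complex, differed in opposite directions. Cox5a rose from 80.9, 79.8, 77.7, and 73.5 CPM to 115, 131, 109, and 114 CPM, a log2 difference of 0.59 (SE 0.08, adjusted p = 1.33e-07), while Cox5b fell from 118, 123, 119.7, and 124.4 CPM to 85.6, 93.1, 86.2, and 83.0 CPM, a log2 difference of -0.48 (SE 0.07, adjusted p = 4.96e-07; quasi-likelihood test of edgeR, Benjamini-Hochberg). Neither gene's times overlapped, and 12.8% of the exon bases of Cox5a, but none of Cox5b, lie under exons of the opposite strand. Cox6a1 fell by 0.34 on the log2 scale, Cox6b1 by 0.31, Cox7a2 by 0.35, and Cox8a by 0.18. The paralogues Cox6a2 and Cox6b2 rose from low levels. Cox6a2 went from 1.15, 2.06, 1.20, and 2.00 CPM to 3.95, 1.63, 4.64, and 3.02 CPM, a log2 difference of 1.04 (SE 0.27, adjusted p = 0.00176), and Cox6b2 from 0.710, 1.91, 1.14, and 1.87 CPM to 3.38, 1.99, 4.13, and 1.501 CPM, one of 0.96 (SE 0.35, adjusted p = 0.0217; quasi-likelihood test of edgeR, Benjamini-Hochberg). In both, the ranges of the times overlapped because of replicate 2 of Cox6a2 and replicate 4 of Cox6b2 at 5 d. Cox6a2 has 10.3% of its exon bases under Itgad on the other strand and Cox6b2 none. Cox4i1 stayed between 227 and 245 CPM in all 8 libraries, with a log2 difference of -0.00, and Ndufa4 with -0.06 and Cox7a2l with 0.12 did not pass.

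Complex V was the most uniform in untreated cultures, with 15 of 16 subunits lower and a median of -0.30. Atp5b, the most abundant member by CPM, went from 1174, 1185, 1135, and 1147 CPM to 845, 932, 872, and 857 CPM, a log2 difference of -0.40 (SE 0.06, adjusted p = 2.44e-06 from the quasi-likelihood test of edgeR, Benjamini-Hochberg). Its times did not overlap. The genes for subunit c all fell, by 0.67 for Atp5g2, 0.46 for Atp5g3, and 0.25 for Atp5g1 on the log2 scale. Atp5g2 had the largest fall of any member, from 29.4, 32.3, 31.9, and 32.6 CPM to 19.7, 20.1, 19.1, and 20.4 CPM (SE 0.06, adjusted p = 4.31e-10 from the quasi-likelihood test of edgeR, Benjamini-Hochberg), with no overlap between the times or with exons of the opposite strand. The exception was Atp5l, which rose from 1.12, 0.950, 0.950, and 0.680 CPM to 1.47, 1.30, 1.96, and 2.40 CPM at its uncertain level, a log2 difference of 0.95 (SE 0.20). Atp5s, the factor B gene, rose from 7.98, 10.2, 9.37, and 10.3 CPM to 15.6, 14.3, 16.4, and 15.8 CPM, a log2 difference of 0.71 (SE 0.09, adjusted p = 1.48e-07 from the quasi-likelihood test of edgeR, Benjamini-Hochberg), with neither kind of overlap.

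A difference in the same direction was seen in the exposed cultures, which are separate libraries but come in part from the same experiment batches as the untreated ones. The arms are therefore not independent repeats of the comparison. Member medians were -0.20 after miR-92a-1-5p, -0.14 in the miR-124-5p arm, and -0.15 in the Mut.oligo arm, against -0.24 in untreated cultures. After miR-92a-1-5p, 49 members were lower and 13 higher at 5 d than at 6 h, with backgrounds of 27.5% and 27.1%. After miR-124-5p, these were 39 and 17, with backgrounds of 26.7% and 27.9%, and after Mut.oligo 36 and 16, with backgrounds of 26.6% and 27.9%. Of the 60 members without opposite-strand overlap, 37 were lower and 4 higher after miR-92a-1-5p, with 28 and 7 in the miR-124-5p arm and 26 and 6 in that of Mut.oligo. Among the 11234 protein-coding genes without such overlap, 30.3% were lower and 26.9% higher after miR-92a-1-5p. These shares were 29.7% and 27.4% in the miR-124-5p arm, and 29% and 27.5% in that of Mut.oligo. Of the 8 complex III subunits, 5, 2, and 0 were called lower and 1, 1, and 2 higher in these arms, in the same order. Their medians were -0.24, -0.07, and -0.11. Of the 16 complex V subunits, 13, 9, and 8 were called lower and 0, 1, and 1 higher, with medians of -0.27, -0.18, and -0.20. The lower calls of complex III in untreated cultures were therefore not repeated in the Mut.oligo arm, although its median was below 0. In all 4 arms, 32 members were called lower and 11 higher, against 20.3% and 20.9% of all genes tested. Of those without opposite-strand overlap, 22 were lower and 3 higher in all 4 arms, against 23.1% and 20.6% of protein-coding genes without it. In the order untreated, miR-92a-1-5p, miR-124-5p, then Mut.oligo, the log2 difference of Cox5a was 0.59, 0.68, 0.63, and 0.78, that of Cox6a2 was 1.04, 1.52, 1.64, and 1.30, that of Atp5s was 0.71, 0.78, 0.75, and 0.78, and that of Atp5g2 was -0.67, -0.67, -0.50, and -0.48. After miR-92a-1-5p, Cox6a2 lay between 1.31 and 2.34 CPM at 6 h and between 3.95 and 5.51 CPM at 5 d, so that the times did not overlap there.

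Most members are short genes, and short transcripts were lower more often at 5 d. Untreated cultures are described first, for genes without opposite-strand overlap and with a median transcript of at most 1000 nucleotides. Of the 944 other genes, 50% were lower with a median of -0.20, and of 44 members 35, or 79.5%, with a median of -0.31. Above 1000 and up to 2000 nucleotides, 44.7% of other genes and 7 of 13 members were lower. Above this length, there were 3 members.

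Other genes of energy metabolism and of protein synthesis were set beside the members in untreated cultures. Of 8 mitochondrially encoded subunits tested, 7 were lower at 5 d and 0 higher, with a median log2 difference of -0.81, and 4 of 5 were lower without counting those with opposite-strand overlap. Of the cytosolic ribosomal protein genes, 68 of 84 were lower and 3 higher with a median of -0.43, and of the mitochondrial ones 39 of 77 were lower and 8 higher with a median of -0.23. Without genes with opposite-strand overlap, these were 53 lower and 0 higher of 65, and 31 lower and 1 higher of 50. Other assembly factors of the chain were divided, with 12 of 35 lower and 6 higher, as were the enzymes of the citrate cycle, with 5 of 17 lower and 4 higher, and of glycolysis, with 7 of 21 lower and 9 higher. Without genes with opposite-strand overlap, 7 of 23 assembly factors were lower and 2 higher, 4 of 14 citrate cycle enzymes were lower and 3 higher, and 7 of 13 glycolytic enzymes were lower and 4 higher, so that glycolysis had a median of -0.16 in place of 0.09 over all 21. Cytochrome c (Cycs) and cytochrome c1 (Cyc1), the electron carriers at the complex III to IV step, fell by 0.46 and 0.49 on the log2 scale, and the ATP synthase inhibitor Atpif1 had 0.09 and did not pass. Of 15 regulators of mitochondrial biogenesis, 8 were lower and 2 higher, with -0.42 for Nrf1, -0.71 for the nuclear receptor Esrra, -0.19 for Yy1, 0.46 for Gabpa, and 0.19 for the coactivator Ppargc1a, which did not pass. Of the exon bases of Gabpa, 6.98% lie under Atp5j on the other strand. Without overlap, 5 of 10 regulators were lower and 1 higher, with a median of -0.04 in place of -0.19 over all 15. In the comparisons of oligoribonucleotides at 6 h and 5 d, 0 genes of these lists passed.

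**Figure D5:**
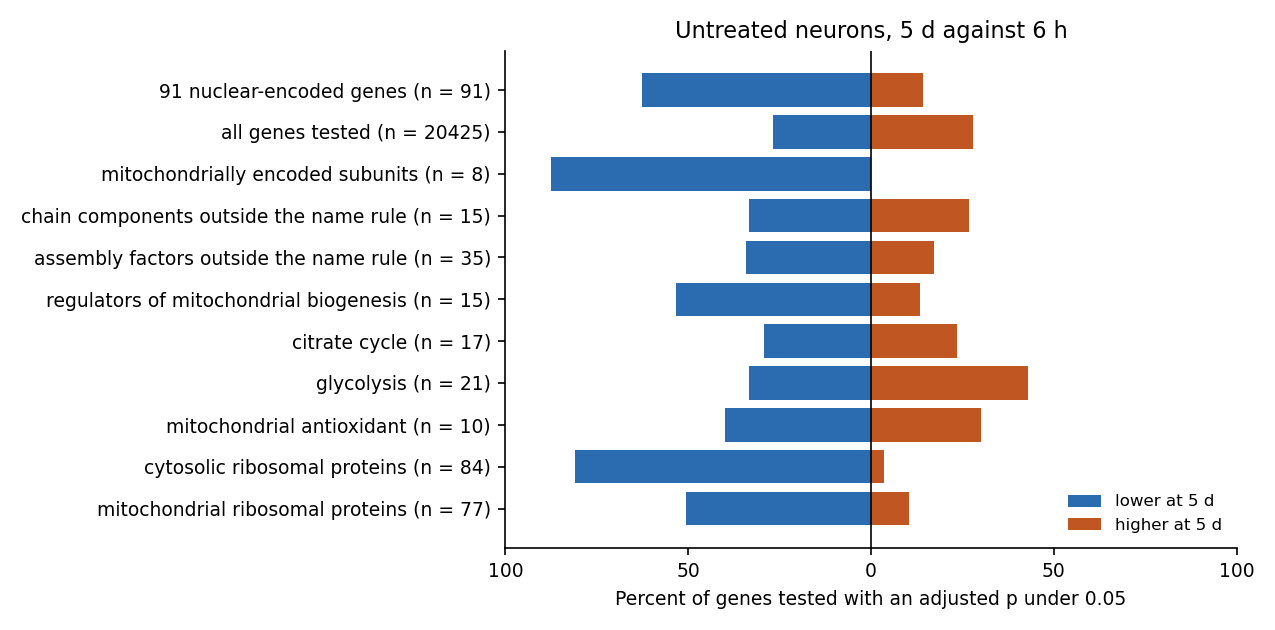
Percent of the genes tested in each list that were lower (blue, to the left) or higher (orange, to the right) at 5 d than at 6 h in untreated cultures, at an adjusted p under 0.05. The 91 members had 57 lower and 13 higher, between the cytosolic ribosomal protein genes, with 68 of 84 lower and 3 higher, and all genes tested, with 26.9% lower and 27.8% higher.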

How the data were processed

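Stranded poly(A) RNA libraries were sequenced as single reads. The authors aligned the reads to GRCm38 with STAR and counted reads on exons with featureCounts, by strand as their methods state, and the deposited values are raw counts per gene, without normalization. Symbols and exon coordinates came from the GENCODE M21 annotation of the same build, which held 49326 of the 49671 identifiers and left 345 without a symbol. Groups were taken from the labels. No 2 replicates were the same library, since chi-square statistics between them were 6.60 to 101 per degree of freedom. Where nothing states separate cultures, p-values measure the spread between these libraries.

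Genes needed 5 or more counts in 3 or more libraries and entered models of edgeR 4.0.16 (R 4.3.3, TMM factors, quasi-likelihood test, no covariate), with all 16 libraries of a time point, or all 32 for comparisons across time. Adjusted p-values follow Benjamini and Hochberg over all genes tested, and calls need one under 0.05. SEs are the log2 fold change divided by the square root of F. DESeq2 1.42.0 was an alternative. The fits were tested on simulated data. Opposite-strand overlap is the share of a gene's exon bases that lie under exons of the other strand.

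Named genes are the 3 members with the smallest p in each comparison, the 5 largest rises and falls with time, the highest and lowest member per length in each role group, and the tissue-type paralogues. Others were named after their values were seen. The values of 1 member are not reported here. The members, gene lists, tests, and naming rule were chosen with earlier results of these data known.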

Additional observations from a re-analysis of the deposited data

Results flagged for a closer look

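In each group of 4 libraries, a library was singled out where its gap to the nearest other one took up a larger part of the group's range than Dixon's 95% critical value allows. Of 376 such checks, of a named gene or of the summed level of the members in a group, 23 singled out a library, and chance does so for about 1 in 20.

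The library miR-124-5p replicate 1 at 5 d accounted for 7 of them, each time as the highest. Its level was 182 CPM for Atp5d, where the other 3 libraries had 109 to 119 CPM, 292 for Cox4i1 (others 213 to 221), 78.1 for Ndufa9 (others 73.6 to 74.3), 62.9 for Ndufb7 (others 34.6 to 36.7), 89.4 for Ndufs4 (others 66.2 to 68.6), 176 for Uqcrc1 (others 124.3 to 125), and 128 for Uqcrq (others 76.2 to 83.6). This is the library with the highest summed level of the members at 5 d. In the same group, replicate 2 was lowest for Sdhaf1, at 7.77 CPM (others 9.78 to 9.81).

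At 5 d, Mut.oligo replicate 3 was highest for Ndufaf5, at 35.02 CPM (others 28.8 to 29.4), and for Ndufaf7, at 39.1 (others 35.5 to 35.9). For miR-92a-1-5p, replicate 1 was lowest for Ndufaf7, at 31.995 CPM (others 35.3 to 35.9), and replicate 4 highest for Ndufc2, at 81.2 (others 78.8 to 78.9). Untreated replicate 4 was highest for Ndufa9, at 80.3 CPM (others 78.9 to 79.1).

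At 6 h, miR-92a-1-5p replicate 4 was highest for Cox6a2, at 2.34 CPM (others 1.31 to 1.43), for Cox8a, at 143 (others 132 to 133), and for Ndufaf8, at 7.12 (others 6.29 to 6.41), while replicate 3 was lowest for Uqcrq, at 87.7 (others 95.7 to 97.2). For miR-124-5p, replicate 1 was highest for Ndufa4, at 178 CPM (others 166 to 168), and replicate 3 lowest for Ndufaf2, at 17.7 (others 19.7 to 20.1). Untreated replicate 1 was highest for Cox6c, at 119.9 CPM (others 107 to 109), and for Ndufa9, at 77.1 (others 72.6 to 72.8), and untreated replicate 4 was lowest for Ndufaf5, at 33.5 (others 35.4 to 35.7). Mut.oligo replicate 2 was highest for Cox6c, at 115 CPM (others 104 to 105).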

How the results depend on the processing

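The number of members called for an oligoribonucleotide, or for its effect at 5 d minus its effect at 6 h, was 0 under every alternative run, which were RLE size factors, DESeq2 without and with the batch, the batch or the replicate number as a covariate, another filter or none, other sets of libraries in the fit, and each replicate left out. Of 70 members called between the times in untreated cultures, 12 passed when a log2 difference beyond 0.5 was also required, 6 in each direction. The median of all 91 members, -0.24, was -0.21 without a filter on low counts, -0.20 in the miR-92a-1-5p arm, -0.14 in the miR-124-5p arm, and -0.15 in the Mut.oligo arm, and -0.28 over the members without opposite-strand exon overlap. When replicates were left out singly, 60 to 70 members were called and the median ranged from -0.26 to -0.19. The shares of all genes called are not given for these alternatives. Their counts therefore show only how far the calls of members moved.

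For miR-92a-1-5p at 5 d, the median of -0.03 was -0.08 both when edgeR and when DESeq2 took the batch as a covariate (-0.0785 and -0.0761), and the median of its effect at 5 d minus that at 6 h was -0.0127 with that covariate and -0.000935 without a filter, so that its sign turned. The median for miR-124-5p against untreated at 5 d was also below 0 with the batch as a covariate, at -0.03, and those of both miRNAs against Mut.oligo at 6 h, and of miR-124-5p against it at 5 d, were near 0 and changed sign under some alternatives. Without both libraries that stood apart, the 5 d medians were -0.06 for miR-124-5p and -0.03 for Mut.oligo. The cause of these moves was not tested.

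Libraries that share a replicate number were not paired. The correlation of their deviations from the group means ranged from -0.64 to 0.83, and only some of them, at 5 d mostly, share a batch. A fit with a replicate block called 0 members at 6 h and 5 d and 70 between the times.

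Opposite-strand overlap limits the comparison of the times for 31 members. Genes with few reads, such as Cox6a2, Cox6b2, and Atp5l, had the widest intervals.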
